A study of Danio rerio with 6 samples.

Results

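The glutathione transferase and glutathione synthesis genes described here are gstm.1, gstm.2, gstm.3, gstp1, gstp2, gstt1a, gstt1b, gstk1, gclc and gclm. They were listed by symbol around gstm.1, which was chosen by its rise in these same libraries, so the values of gstm.1 are given as a description and carry no test. Of the 10 genes, 9 were paired with a transcript row, among 14315 genes paired in all, and gstt1a was not analysed here. All 9 passed the filter on low counts. The question was whether the rise of gstm.1 was shared by its tandem copies, by the other transferase classes and by the enzymes that make glutathione.

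Glutathione transferases join the tripeptide glutathione to reactive, electrophilic molecules, which makes those molecules more soluble and easier to export. The cytosolic enzymes fall into classes named by Greek letters, among them mu (gstm), pi (gstp) and theta (gstt), while the kappa enzyme gstk1 belongs to a separate family found in mitochondria and peroxisomes. Glutathione itself is made by glutamate-cysteine ligase, whose catalytic subunit is encoded by gclc and whose modifier subunit is encoded by gclm, followed by glutathione synthetase. Many of these genes are targets of the transcription factor Nrf2, which is held in check by Keap1 and released by electrophiles and oxidants, and zebrafish gstp1 is a widely used reporter of this response.

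RNA was sequenced from 3 pools of hnrnpul1/1l mutant embryos and 3 pools of wild-type embryos at 72 hours post fertilization, each pool holding the heads and trunks of 8 embryos raised in E3 medium whose tails had been taken for genotyping. The mutants carried frameshifting insertions in hnrnpul1 (allele Ca54) and in its paralogue hnrnpul1l (allele Ca52), which encode RNA-binding proteins of the hnRNP U-like family. The study's results describe the mutants as maternal-zygotic mutants for hnrnpul1l and as zygotic mutants for hnrnpul1. They say that the wild-type pools were offspring of hnrnpul1l heterozygotes, whereas the study's methods call them siblings. By the description in the study's results the mothers differed between the groups. A maternal-zygotic hnrnpul1l mutant has a homozygous mutant mother, while the wild types came from heterozygotes. Parentage and genotype therefore cannot be told apart.

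The p-values set the difference between the groups against the spread between pools of the same group. The labels do not say whether the pools came from separate clutches, so that spread may not cover differences between clutches. The libraries held 40891309 to 62580215 estimated counts, and levels are given in CPM, counts scaled to a common library size after TMM adjustment, where 1 CPM stood for 37.3 to 67.0 counts. These counts are not scaled for transcript length, so levels are not compared between different genes. Transcripts of hnrnpul1 averaged 38.5 ± 14.2 CPM in mutants and 122 ± 4.5 CPM in wild types (SD, n = 3 each), with a log2 fold change of -1.67 (SE 0.30), and the lowest value, 22.1 CPM, was in mutant pool 3. No row was paired with hnrnpul1l. RNA of whole heads and trunks was measured, so fewer cells of a type and less RNA per cell cannot be told apart.

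Tests used edgeR's quasi-likelihood method over the 13553 transcripts that passed the filter, with Benjamini-Hochberg adjustment over all of them. The list was chosen through gstm.1, so counts are given over the other 8 genes. At an adjusted p below 0.05 edgeR called 0 of these 8, where 0% of all transcripts were called. At an unadjusted p below 0.05, 0 of the 8 were higher, against a background of 4.18% of all transcripts, and 1 was lower, gstm.2, against 4.61%. The mutant pools lay wholly above the wild-type pools for 0 of the 8, against 7.71% of all transcripts, and wholly below them for 1, again gstm.2, against 9.08%. DESeq2 called 1.46% of the transcripts to which it gave an adjusted p, and 1 of the 8, gstm.2. In an exact permutation test 3 pools against 3 cannot give a two-sided p below 0.1.

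The log2 fold change, mutant over wild type, was above 0 for 5 of the 8 genes other than gstm.1 and below 0 for 3, with a median of 0.43. Over all tested transcripts the median was -0.01 and 49.1% were higher. Without mutant pool 3 the median of the 8 was 0.13, and without mutant pool 2 it was 0.56, with 5 higher in each case. With gstm.1 included, 6 of the 9 were higher and the median was 0.51.

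**Figure D1:**
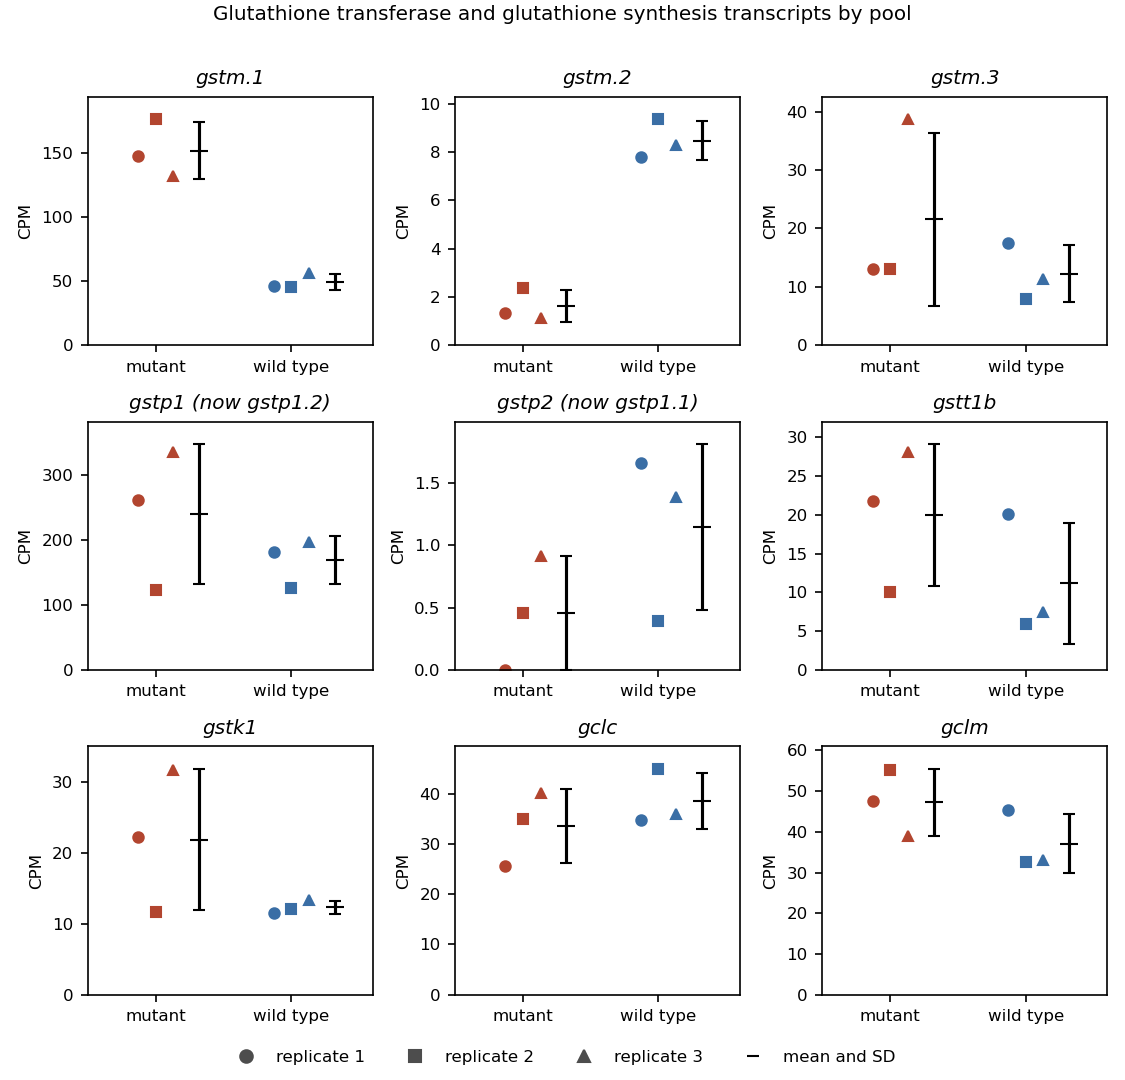
Level of each transcript in CPM (y axis, linear, a separate scale for each gene) in the 3 mutant pools (red) and the 3 wild-type pools (blue), with the mean and SD as a black bar beside each group. The groups are apart for gstm.1, at 132 to 176 CPM in mutants and 45.4 to 56.5 CPM in wild types, and for gstm.2 in the other direction, and they overlap for the other genes.

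Among the class mu genes, gstm.1 (NM_212676) was measured at 147, 176 and 132 CPM in mutant pools 1, 2 and 3, against 46.1, 45.4 and 56.5 CPM in wild-type pools 1, 2 and 3. Every mutant pool lay above every wild-type pool, and the lowest mutant value was more than double the highest wild-type value. The mean was 152 ± 22.3 CPM in mutants and 49.3 ± 6.2 CPM in wild types (SD, n = 3 each), a 3.08-fold difference (log2 fold change 1.62, SE 0.21). Leaving out each library in turn gave log2 fold changes of 1.53 to 1.73.

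The next gene in the RefSeq order, gstm.2 (NM_001110116), encodes another class mu transferase and differed in the other direction. It was measured at 1.31, 2.36 and 1.14 CPM in mutant pools 1, 2 and 3, against 7.80, 9.36 and 8.29 CPM in wild-type pools 1, 2 and 3. All 3 mutant pools were below all 3 wild-type pools, although both groups were at a low level. The mean was 1.603 ± 0.661 CPM in mutants and 8.48 ± 0.80 CPM in wild types (SD, n = 3 each), which is 5.30-fold lower in mutants. The log2 fold change was -2.41 (SE 0.47, 95% interval -3.49 to -1.32), with an unadjusted p of 9.28e-04 and an adjusted p of 0.350 in edgeR's quasi-likelihood test. DESeq2 gave a log2 fold change of -2.39 with an adjusted p of 0.00153, and over all the alternatives the adjusted p ran between that value and 0.999.

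The third copy, gstm.3 (NM_001162851), had overlapping groups. It was measured at 12.97, 13.03 and 38.66 CPM in mutant pools 1, 2 and 3, against 17.6, 7.93 and 11.2 CPM in wild-type pools 1, 2 and 3. Mutant pool 3 was above all the wild-type pools, while mutant pools 1 and 2 lay within the wild-type range. The log2 fold change was 0.82 (SE 0.51, 95% interval -0.37 to 2.002, adjusted p = 0.724 in edgeR), and without mutant pool 3 it was 0.08. That interval includes both 0 and the 1.62 of gstm.1, so these values do not settle whether gstm.3 shared the rise.

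The estimated counts behind these levels show how the class mu reads were divided. For gstm.1 they were 8759, 6564 and 7075 in mutant pools 1, 2 and 3, against 2698, 2422 and 3780 in wild-type pools 1, 2 and 3. For gstm.2 they were 78, 88 and 61.0 in the mutants, against 456, 499 and 555 in the wild types. For gstm.3 they were 772, 486 and 2071 in the mutants, against 1027, 423 and 753 in the wild types. In 4 of the 6 libraries some of these values had a fractional part, while their sum over the 3 copies was whole to within 0.01 in 6 of 6 libraries. An estimator that shares reads between similar transcripts gives fractions of this kind, so the split between the copies, in particular between gstm.1 and gstm.3, is less certain than their sum.

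Summed over the 3 copies, class mu transcripts reached 161, 191 and 172 CPM in mutant pools 1, 2 and 3, against 71.5, 62.7 and 76.0 CPM in wild-type pools 1, 2 and 3. The sum averaged 175 ± 15.2 CPM in mutants and 70.1 ± 6.8 CPM in wild types (SD, n = 3 each), 2.50-fold higher in mutants (log2 fold change 1.32, SE 0.19). This sum, which was added after the single copies had been seen, is mostly gstm.1 and so carries no test either. The sum of gstm.1 and gstm.3 alone was 2.81-fold higher in mutants.

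The makeup of the class mu counts was also set side by side. These shares and ratios are of counts not scaled for transcript length, so they are compared between libraries and do not rank the copies. gstm.1 made up 91.2%, 92.0% and 76.8% of them in mutant pools 1, 2 and 3, against 64.5%, 72.4% and 74.3% in wild-type pools 1, 2 and 3. The share of gstm.2 was 0.812%, 1.23% and 0.663% in the mutants, against 10.9%, 14.9% and 10.9% in the wild types. The share of gstm.3 was 8.03%, 6.81% and 22.5% in the mutants, against 24.6%, 12.7% and 14.8% in the wild types. For gstm.1 and gstm.2 the shares did not overlap between the groups, and for gstm.3 they did. Every share has gstm.1 in its total, so a higher gstm.1 count alone lowers the shares of the other copies. These shares are therefore descriptions and carry no test.

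There were 112, 74.6 and 116 counts of gstm.1 for each count of gstm.2 in mutant pools 1, 2 and 3, against 5.92, 4.85 and 6.81 in wild-type pools 1, 2 and 3. On the log2 scale this ratio averaged 6.63 ± 0.36 in mutants and 2.54 ± 0.25 in wild types (SD, n = 3 each), a difference of 4.09 or 17.1-fold. It joins the changes of gstm.1 and gstm.2 already given, and gstm.1 chose the list, so it carries no test. The ratio of gstm.1 to gstm.3 was 11.3, 13.5 and 3.42 in the mutants, against 2.63, 5.72 and 5.02 in the wild types, and overlapped through mutant pool 3.

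**Figure D2:**
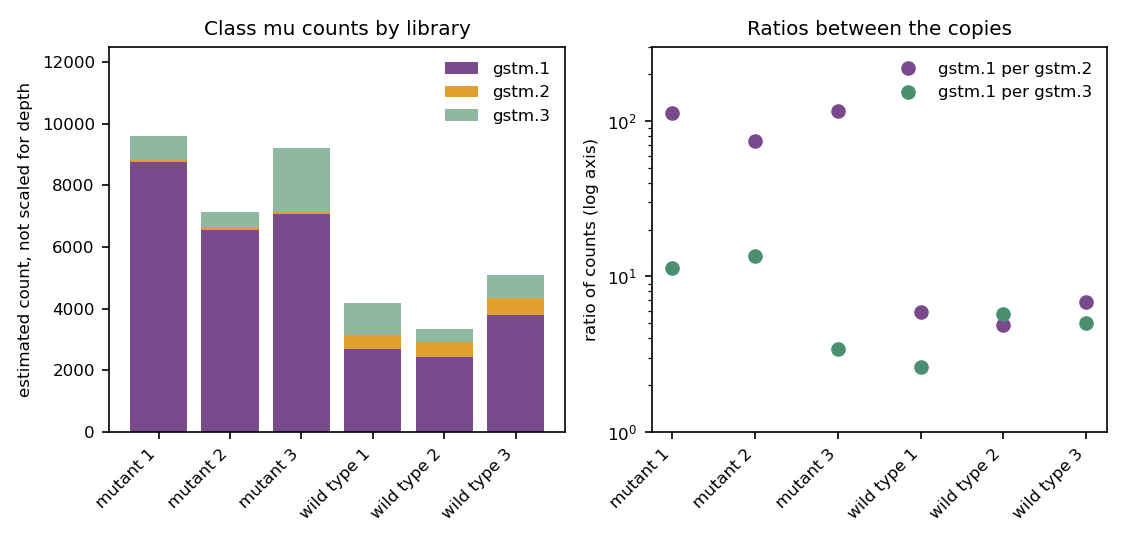
Left, estimated counts of gstm.1, gstm.2 and gstm.3 stacked for each library (y axis in counts, not scaled for depth). Right, gstm.1 counts for each count of gstm.2 and of gstm.3 in the same libraries (log axis), where the ratio to gstm.2 is 74.6 to 116 in mutants and 4.85 to 6.81 in wild types.

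The 3 gstm genes stand one after the other in the RefSeq gene table. The nearest tested gene before them is gnat2, the cone transducin subunit of photoreceptors, at 43.7, 156 and 344 CPM in mutant pools 1, 2 and 3, against 722, 751 and 635 CPM in wild-type pools 1, 2 and 3. All its mutant pools were below its wild-type pools (log2 fold change -1.96, SE 0.62, adjusted p = 0.474 in edgeR). Next along were gnai3, an inhibitory G protein subunit, at a log2 fold change of -0.25 (SE 1.48), and atxn7l2b at -0.51 (SE 0.39), both with overlapping pools.

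On the other side the nearest tested gene was atp5pb, a subunit of mitochondrial ATP synthase, with a log2 fold change of -0.02 (SE 0.25). Taking the nearest 8 tested genes on each side of gstm.1 and leaving out gstm.2 and gstm.3, 14 neighbours remained. Of these 5 were higher in mutants and 9 lower, and their median was -0.13 on the log2 scale. The pools did not overlap for 1 that was higher, sort1b, and for 2 that were lower, ahcyl1 and gnat2, where all transcripts gave 7.71% and 9.08%. These neighbours beyond the nearest 3 were added after the values had been seen.

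**Figure D3:**
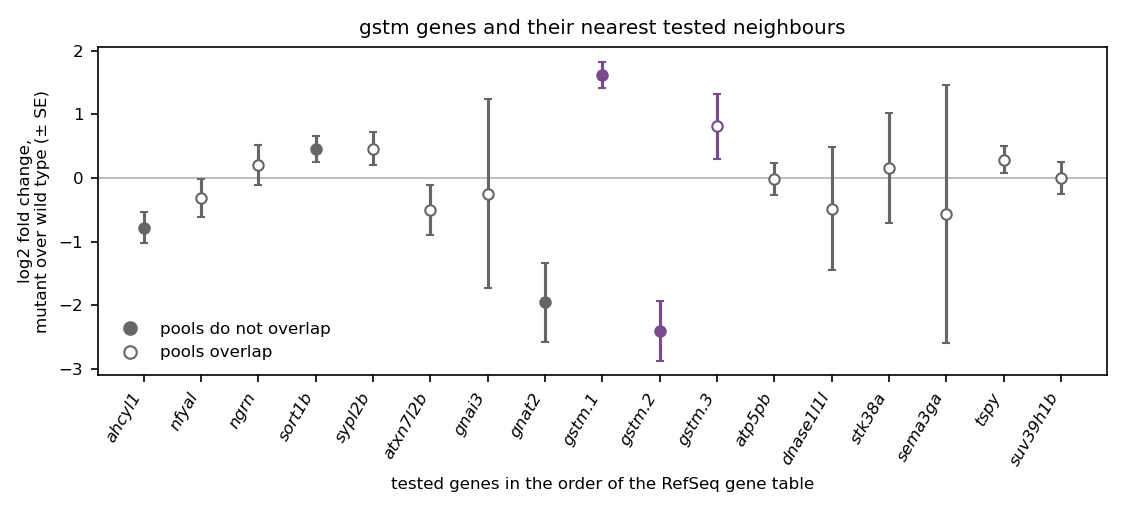
Log2 fold change, mutant over wild type, with its standard error (y axis) for the 3 gstm genes (purple) and the nearest tested genes (grey) in the order of the RefSeq gene table (x axis, not to distance). Filled points mark genes whose pools do not overlap. gstm.1 at 1.62 and gstm.2 at -2.41 lie beside each other and point in opposite directions, and atp5pb is at -0.02.

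In the pi class, gstp1 (NM_131734, now named gstp1.2) was measured at 261, 123 and 335 CPM in mutant pools 1, 2 and 3, against 182, 127 and 197 CPM in wild-type pools 1, 2 and 3. Mutant pools 1 and 3 were above all the wild types and mutant pool 2 was below all of them. The mean was 240 ± 107 CPM in mutants and 169 ± 37.2 CPM in wild types (SD, n = 3 each), with a log2 fold change of 0.51 (SE 0.37, 95% interval -0.34 to 1.35, adjusted p = 0.766 in edgeR). Without mutant pool 3 the log2 fold change was 0.19, and without mutant pool 2 it was 0.86.

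Its near copy gstp2 (NM_001020513, now named gstp1.1) was close to the limit of what could be measured. It was measured at 0, 0.456 and 0.915 CPM in mutant pools 1, 2 and 3, against 1.66, 0.394 and 1.39 CPM in wild-type pools 1, 2 and 3. The groups overlapped, and the 95% interval of the log2 fold change of -1.33 ran from -5.27 to 2.62 (adjusted p = 0.905 in edgeR). The sum of both pi copies had a log2 fold change of 0.50 (SE 0.37, adjusted p = 0.768 in edgeR), close to that of gstp1 alone.

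In the theta class, gstt1b (NM_200584) was measured at 21.80, 9.999 and 28.04 CPM in mutant pools 1, 2 and 3, against 20.1, 5.91 and 7.45 CPM in wild-type pools 1, 2 and 3. Wild-type pool 1 lay between the mutant values, so the groups overlapped. The log2 fold change was 0.84 (SE 0.56, 95% interval -0.45 to 2.13, adjusted p = 0.739 in edgeR), and without wild-type pool 1 it was 1.58.

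The kappa class gene gstk1 (NM_001002560) was measured at 22.3, 11.7 and 31.7 CPM in mutant pools 1, 2 and 3, against 11.6, 12.2 and 13.3 CPM in wild-type pools 1, 2 and 3. The wild types were close together, mutant pools 1 and 3 were above them and mutant pool 2 was among them. The mean was 21.89 ± 10 CPM in mutants and 12.35 ± 0.895 CPM in wild types (SD, n = 3 each), with a log2 fold change of 0.83 (SE 0.38, 95% interval -0.04 to 1.69). Its unadjusted p was 0.0595 and its adjusted p 0.580 in edgeR's quasi-likelihood test. Without mutant pool 3 the log2 fold change was 0.46, and without mutant pool 2 it was 1.17.

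Glutamate-cysteine ligase catalyses the first and rate-limiting step of glutathione synthesis. Its catalytic subunit gene gclc (NM_199277) was measured at 25.6, 35.1 and 40.1 CPM in mutant pools 1, 2 and 3, against 34.87, 44.98 and 36.01 CPM in wild-type pools 1, 2 and 3. The groups overlapped, with a log2 fold change of -0.20 (SE 0.25, 95% interval -0.78 to 0.38, adjusted p = 0.901 in edgeR). That interval does not reach the log2 value of 1 that would be a doubling.

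The modifier subunit gene gclm (NM_199845) was measured at 47.5, 55.3 and 38.9 CPM in mutant pools 1, 2 and 3, against 45.4, 32.6 and 33.1 CPM in wild-type pools 1, 2 and 3. Mutant pool 3 was below wild-type pool 1, so the groups overlapped. The log2 fold change was 0.35 (SE 0.24, 95% interval -0.21 to 0.91, adjusted p = 0.751 in edgeR). Like that of gclc, this interval stayed below the log2 value of a doubling. The count of gclc for each count of gclm was 0.539, 0.634 and 1.03 in the mutants, against 0.767, 1.38 and 1.09 in the wild types, and overlapped as well.

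**Figure D4:**
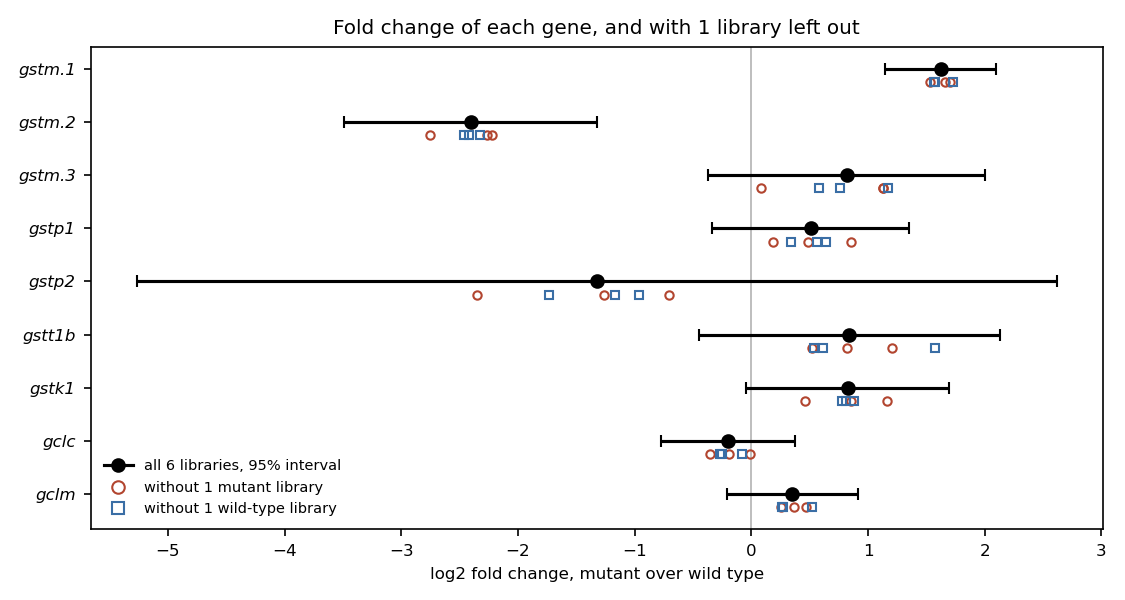
Log2 fold change, mutant over wild type (x axis), of each gene with its 95% interval from edgeR over all 6 libraries (black), and below it the value with 1 mutant library (red circles) or 1 wild-type library (blue squares) left out. The values of gstm.1 (1.53 to 1.73) and gstm.2 (-2.76 to -2.22) move little, while gstm.3 lies between 0.08 and 1.17. The interval of gstm.1 describes the gene by which the list was chosen.

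Several of the other genes had a different order of pools from gstm.1. gstm.1 was highest in mutant pool 2 and lowest among the mutants in mutant pool 3, while gstm.3, gstp1, gstt1b and gstk1, 4 of the 9, had the highest value of all 6 libraries in mutant pool 3. The share of all transcripts that were highest in mutant pool 3 was not counted. Among the mutants gstm.2 and gclm had the same order of pools as gstm.1, highest in pool 2 and lowest in pool 3. The median over the 8 other genes of the log2 ratio to the wild-type mean was 0.27, -0.10 and 0.55 in mutant pools 1, 2 and 3, against 0.22, -0.28 and -0.04 in wild-type pools 1, 2 and 3. So mutant pool 2 lay within the wild-type range by this measure. Over the 6 libraries Pearson's r of log2 CPM with gstm.1 was -0.92 for gstm.2, between 0.30 and 0.67 for gstm.3, gstp1, gstt1b, gstk1 and gclm, and -0.51 and -0.47 for gstp2 and gclc. These values describe 6 libraries that share the split by genotype.

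The 3 genes whose levels tracked gstm.1 most closely were in none of the lists used here. Among genes averaging at least 10 CPM, the highest Pearson's r over the 6 libraries belonged to fzd8a (0.999), a Wnt receptor, tnnt3a (0.993), a fast skeletal muscle troponin T, and hoxa2b (0.992), a homeobox gene of the hindbrain and neural crest. tnnt3a was measured at 579, 599 and 479 CPM in mutant pools 1, 2 and 3, against 249, 222 and 285 CPM in wild-type pools 1, 2 and 3, a log2 fold change of 1.13. hoxa2b had a log2 fold change of 0.91 and fzd8a 0.33. All 3 were picked for their likeness to gstm.1, so neither their fold changes nor these values of r are tested.

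Related lists were set against the shares over all transcripts, which were 4.18% higher and 4.61% lower at an unadjusted p below 0.05, and 7.71% higher and 9.08% lower with no overlap of the pools. Of 16 other glutathione transferase genes, 14 were tested, of which 9 were higher and 5 lower in mutants, and their median was 0.15 on the log2 scale. edgeR called 0 of them, 1 was higher and 1 lower at an unadjusted p below 0.05, and the pools did not overlap for 2 that were higher and 1 that was lower. Without mutant pool 3 the median was -0.07. The gene that was higher by that p was gstr, named after its values were seen, at 26.0, 17.6 and 35.4 CPM in mutant pools 1, 2 and 3, against 11.1, 13.3 and 20.3 CPM in wild-type pools 1, 2 and 3, with overlapping groups (log2 fold change 0.82, SE 0.35, adjusted p = 0.561 in edgeR). The microsomal transferase mgst2 was measured at 36.1, 45.4 and 52.2 CPM in mutant pools 1, 2 and 3, against 34.99, 27.25 and 30.16 CPM in wild-type pools 1, 2 and 3 (log2 fold change 0.53, SE 0.23, adjusted p = 0.573 in edgeR). The theta class gene gstt2 averaged 12.7 ± 1.2 CPM in mutants and 10.2 ± 0.6 CPM in wild types (SD, n = 3 each), or 0.33 as a log2 fold change (SE 0.28). The transferase-like mitochondrial outer membrane protein gene gdap1 averaged 17.0 ± 1.7 CPM in mutants and 25.3 ± 3.6 CPM in wild types, or -0.58 as a log2 fold change (SE 0.24, adjusted p = 0.548).

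In the supply and turnover of glutathione, 18 of 22 genes were tested, 9 on each side of 0, and the median log2 fold change was 0.11. edgeR called 0, with 1 higher and 2 lower at an unadjusted p below 0.05, and the pools did not overlap for 1 that was higher and 2 that were lower. The gene higher by that p was cth, of the route to cysteine and named after its values were seen, at a log2 fold change of 0.61 (SE 0.26) with overlapping pools. gss, which encodes glutathione synthetase, the second enzyme of the pathway, was measured at 3.93, 3.19 and 3.15 CPM in mutant pools 1, 2 and 3, against 1.57, 0.581 and 1.66 CPM in wild-type pools 1, 2 and 3. Its mutant pools were all above its wild-type pools at a low level, with a log2 fold change of 1.43 (SE 0.69, adjusted p = 0.605 in edgeR).

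chac1 encodes an enzyme that breaks glutathione down. It was measured at 168, 173 and 219 CPM in mutant pools 1, 2 and 3, against 382, 359 and 266 CPM in wild-type pools 1, 2 and 3. The groups did not overlap (log2 fold change -0.85, SE 0.22, unadjusted p = 0.00513, adjusted p = 0.408 in edgeR). cbsb, a cystathionine beta-synthase of the route to cysteine, averaged 40.4 ± 6.2 CPM in mutants and 59.7 ± 7.4 CPM in wild types (SD, n = 3 each), or -0.56 as a log2 fold change (SE 0.22, adjusted p = 0.540 in edgeR).

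A list of 29 genes held enzymes that act on peroxides and aldehydes through glutathione or thioredoxin. It also held cat, sod1 and sod2, which encode catalase and superoxide dismutases and use neither. Of the 25 tested, 20 were higher in mutants and 5 lower, and the median was 0.26 on the log2 scale. edgeR called 0, with 6 higher and 1 lower at an unadjusted p below 0.05, against 4.18% and 4.61% of all transcripts. The pools did not overlap for 5 that were higher and 2 that were lower, against 7.71% and 9.08%. Without mutant pool 3 the median was 0.28. glo1, the glyoxalase that detoxifies methylglyoxal bound to glutathione, was measured at 212, 184 and 245 CPM in mutant pools 1, 2 and 3, against 146, 96.8 and 118 CPM in wild-type pools 1, 2 and 3. Its groups did not overlap (log2 fold change 0.83, SE 0.22, unadjusted p = 0.00606, adjusted p = 0.426 in edgeR).

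gpx4a, a glutathione peroxidase that reduces lipid peroxides, was measured at 74.0, 67.7 and 125 CPM in mutant pools 1, 2 and 3, against 56.3, 43.1 and 23.8 CPM in wild-type pools 1, 2 and 3. Here too the groups did not overlap (log2 fold change 1.11, SE 0.37, adjusted p = 0.474 in edgeR). The glutaredoxin gene glrx averaged 91.0 ± 20.7 CPM in mutants and 60.3 ± 8.8 CPM in wild types (SD, n = 3 each), or 0.59 as a log2 fold change (SE 0.23, adjusted p = 0.548 in edgeR). In the other direction cat, which encodes catalase, averaged 48.8 ± 3.6 CPM in mutants and 73.8 ± 9.5 CPM in wild types, a log2 fold change of -0.60 (SE 0.19, adjusted p = 0.474), and the mitochondrial thioredoxin gene txn2 was at -0.24 (SE 0.19).

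Zebrafish have paired copies of the Nrf2 and Keap1 genes. nfe2l2a was measured at 10.8, 21.8 and 16.8 CPM in mutant pools 1, 2 and 3, against 15.36, 11.63 and 13.01 CPM in wild-type pools 1, 2 and 3, with a log2 fold change of 0.30 (SE 0.33). nfe2l2b was below 2 CPM in every library, at 0, 0 and 1.08 CPM in the mutants, against 1.64, 0.732 and 1.37 CPM in the wild types. keap1a and keap1b had log2 fold changes of -0.57 (SE 0.52) and -0.37 (SE 0.25), and the groups overlapped for all 4 of these genes.

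Over 15 tested of 16 regulators of the Nrf2 pathway, 6 lay above 0 and 9 below it, and the median log2 fold change was -0.50. The list holds both activators and repressors, so its median gives no direction for the pathway. Its summed level had a log2 ratio of -0.09, mutant over wild type. edgeR called 0, with 0 higher and 2 lower at an unadjusted p below 0.05, the same 2 whose pools did not overlap. They were bach1a, a repressor that competes with Nrf2, at 15.81 ± 3.75 CPM in mutants and 25.4 ± 5.9 CPM in wild types (log2 fold change -0.68, SE 0.29, adjusted p = 0.559), and maff, a small Maf partner, at 33.6 ± 3.3 CPM in mutants and 48.3 ± 6.4 CPM in wild types (log2 fold change -0.52, SE 0.21, adjusted p = 0.548).

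Of 25 other Nrf2 targets listed, 21 were tested, 14 higher and 7 lower, and their median of 0.06 on the log2 scale turned to -0.05 when libraries were scaled by their totals alone. edgeR called 0, with 1 higher and 1 lower at an unadjusted p below 0.05, and the pools did not overlap for 2 that were higher and 3 that were lower. The autophagy receptor gene sqstm1 averaged 46.21 ± 9.95 CPM in mutants and 28.9 ± 7.3 CPM in wild types (log2 fold change 0.67, SE 0.28, adjusted p = 0.550 in edgeR). ugdh, of glucuronide synthesis, was at 0.47 (SE 0.22). The pentose phosphate enzyme genes taldo1 and tktb were at -0.70 (SE 0.33) and -0.22 (SE 0.17), and cat, given above, is also in this list. So are txnrd1 (paired with a transcript now named txnrd3) and prdx1 of the peroxide enzyme list, and gsr and abcc2 of the glutathione supply list. The lists therefore share tested genes.

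The battery of the aryl hydrocarbon receptor, a second route to transferase induction, had 9 of 12 genes tested, 4 higher and 5 lower, and the median was -0.06 on the log2 scale. edgeR called 0, with 0 higher and 1 lower at an unadjusted p below 0.05. The cytochrome P450 gene cyp1c1 averaged 30.1 ± 6.5 CPM in mutants and 21.2 ± 2.7 CPM in wild types (log2 fold change 0.51, SE 0.25), and tiparp, a receptor-induced ADP-ribosyltransferase, averaged 21.7 ± 1.5 CPM in mutants and 33.4 ± 5.8 CPM in wild types (log2 fold change -0.62, SE 0.23, adjusted p = 0.525 in edgeR). Each was the 1 gene of the list without overlap in its direction.

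**Figure D5:**
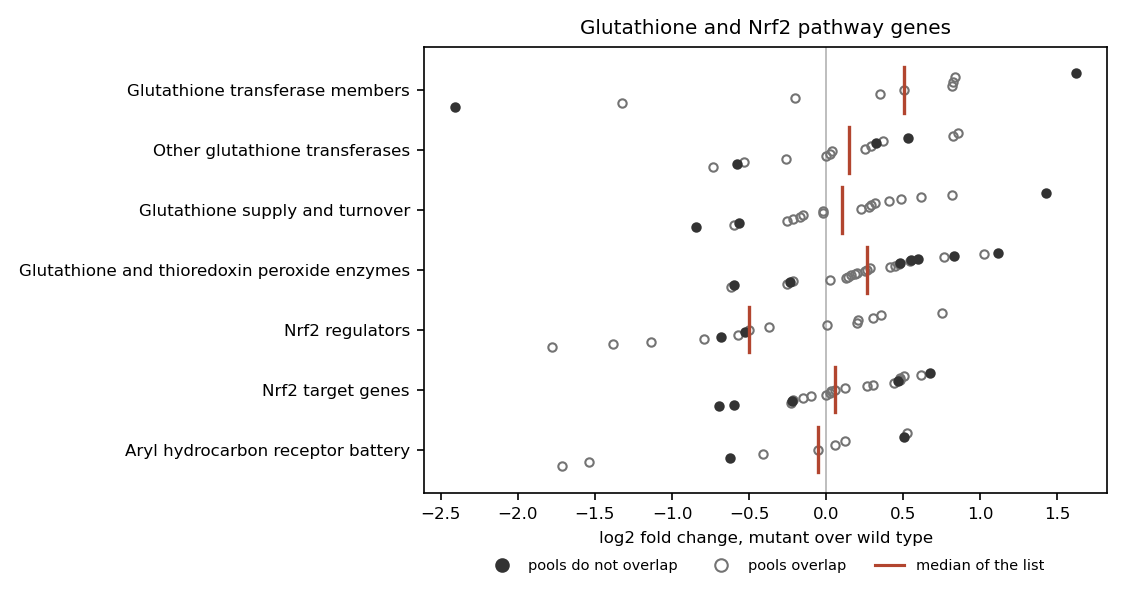
Log2 fold change, mutant over wild type (x axis), of each tested gene in the glutathione transferase list and in 6 lists of related genes (rows), with the median of each list as a red line. Filled points mark genes whose pools do not overlap. The medians lie between -0.50 for Nrf2 regulators and 0.51 for the transferase members, gstm.1 included, and gstm.1 and gstm.2 are the outermost points.

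The summed levels of markers of several cell types also differed between the groups and between pools. All 11 skin markers tested were higher in mutants, with a median log2 fold change of 1.02 (0.56 without mutant pool 3), and summed to 13480, 11610 and 23120 CPM in mutant pools 1, 2 and 3, against 6580, 3939 and 10620 CPM in wild-type pools 1, 2 and 3. All 8 red cell markers were higher, summing to 1278 to 2286 CPM in mutants and 881 to 1113 CPM in wild types. All 15 photoreceptor markers were lower, summing to 1253 to 4594 CPM in mutants and 7369 to 11040 CPM in wild types. Among single markers edgeR called 0 in each of these 3 lists. The pools did not overlap for 3 of the 11 skin markers and 4 of the 8 red cell markers, all higher. They did not overlap for 13 of the 15 photoreceptor markers, all lower. Over all transcripts the shares were 7.71% higher and 9.08% lower. Most of the skin counts were of krt4. The summed levels of these 3 lists were apart between the groups, as were gstm.1 and gstm.2. The neighbouring gnat2, also apart, is itself 1 of the 15 photoreceptor markers. The part of these 3 summed levels in the results was not tested.

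Mutant pool 3 was highest for gstm.3, gstp1, gstt1b and gstk1. It was also highest for the summed skin, liver, intestine, skeletal muscle, red cell, and fin and cartilage markers. Photoreceptor, neuron and glia, and pronephros markers were highest in another library. Liver markers, of which 15 of 20 were tested with 8 higher and 7 lower, summed to 557, 444 and 1077 CPM in mutant pools 1, 2 and 3, against 674, 436 and 778 CPM in wild-type pools 1, 2 and 3. Of the 9 intestine markers tested 2 were higher and 7 lower, with a median of -0.40 on the log2 scale. They summed to 541, 390 and 837 CPM in the mutants, against 650, 356 and 613 CPM in the wild types, and apoa1a, at a log2 fold change of 0.33, had most of these counts. The liver and intestine are main sites of transferase expression, and the part of these differences between pools in the values above was not tested. Skeletal muscle markers summed to 16860 to 37200 CPM in mutants and 13940 to 28300 CPM in wild types, with 9 of 11 higher. The summed levels of neuron and glia, pronephros, and fin and cartilage markers overlapped between the groups, with median log2 fold changes of 0.01, -0.07 and -0.02. Among single markers, the pools did not overlap for 1 higher and 1 lower of 10 neuron and glia markers. They did not overlap for 2 higher and 1 lower of 11 pronephros markers, and overlapped for all 10 of fin and cartilage. Over all transcripts the shares without overlap were 7.71% higher and 9.08% lower. No marker paired with a transcript row was at 0 in all 6 libraries, including those that did not pass the filter on low counts.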

How the data were processed

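Paired-end RNA sequencing was done on 3 pools of hnrnpul1/1l mutant embryos and 3 pools of wild-type embryos. The authors deposited a table for each library that lists 15455 RefSeq transcripts with their estimated counts, which are scaled neither for depth nor for length. The submitters' processing notes list kallisto 0.42.4, bcl2fastq 2.20.0.422 and the danRer10 build without stating their roles. Estimated counts can divide reads between similar copies. In each library 15.8% to 18.3% of the values were fractional, and all were rounded to whole numbers. No pair of libraries was identical (Spearman correlations of 0.920 to 0.966).

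Symbols came from a RefSeq table of the GRCz12tu assembly, which paired 14740 rows with 14315 genes. It was used for names and for gene order only, the order being that of the start positions along the chromosome. No sequences were used. Counts were analysed in R 4.3.3 with edgeR 4.0.16 (filterByExpr, TMM, quasi-likelihood test, Benjamini-Hochberg over 13553 transcripts, called below 0.05). The common biological coefficient of variation was 0.61 and the smallest adjusted p was 0.182. Standard errors are the log2 fold change divided by the square root of F. Log2 CPM for correlations used a prior count of 2. A gene with several transcripts entered the lists by the one with most counts.

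The members and lists were chosen with earlier results of these data known. The text names all members, hnrnpul1, the Nrf2 and Keap1 genes, the 3 tested genes on each side of gstm.1, the 3 genes most like it, and in each pathway list up to 3 genes in each direction with the largest change among those without overlap between the groups and with a mean of at least 1 CPM. A gene named outside this rule was chosen after its values were seen, unless it is named only as a member of a list. Alternatives were RLE size factors, library totals, DESeq2 1.42.0, limma-voom (limma 3.58.1), no filter, a mean of at least 5 CPM, a replicate block, transcript counts added up by gene, and each library left out in turn. Sums over copies, list medians without mutant pool 3, counts over the members other than gstm.1 and the wider set of neighbours were added after seeing the data.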

Additional observations from a re-analysis of the deposited data

How the results depend on the processing

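Over all alternatives the direction of each member and the count of 6 higher members were kept. DESeq2 called 202 transcripts (90 higher, 112 lower), where edgeR called 0, and gave gstm.2 a log2 fold change of -2.39 with an adjusted p of 0.00153. Leaving out each library in turn, edgeR called 0 to 1 transcripts, the 1 without mutant pool 3, and the median of the members ran from 0.19 to 0.86. Scaling by library totals moved the median of all transcripts to -0.135, the median of the members to 0.40 and that of the Nrf2 target genes from 0.06 to -0.046, so list medians near 0 have no sure sign. The range of log2 fold changes without 1 library was 0.52 to 1.58 for gstt1b, -2.35 to -0.70 for gstp2, -0.35 to -0.01 for gclc and 0.26 to 0.52 for gclm. gstp2 was not tested at a mean of at least 5 CPM. The labels do not say what a replicate number marks, and same-numbered deviations correlated at -0.09, 0.13 and 0.38 over the 3 numbers. With the replicate block edgeR called 0 transcripts (smallest adjusted p 0.0620), the median of the members was 0.42, gstm.1 was at 1.62 and gstm.2 at -2.47 (adjusted p = 0.291), and not every sample correlated best with its own number. Levels were not scaled to transcript length, since none was used here, so no ranking of genes by level was run. gstp2, with counts of 0 to 97.0, was the member nearest to the limit set by depth.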
